A study of Homo sapiens with 12 samples.

Results

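Large domains of H3K9me2 were taken here as continuous autosomal stretches of at least 30 kb that lay under called islands of the mark in all 4 H3K9me2 libraries of the study. There were 707 of them among 5505 stretches of any length common to the 4 libraries. They were chosen by the islands of both conditions together, so their number, size, position and edges are a description of those islands and carry no test. H3K9ac was not used to choose them. The cells were MDA-MB-231, a human triple negative breast adenocarcinoma line, serum starved overnight and then either left untreated or exposed to 500 µM DETA/NO, a donor that releases nitric oxide slowly, for 24 h. For each of the marks H3K9me2 and H3K9ac there were 2 biological replicates per condition. Everything rests on 1 cell line, and coordinates are on hg19, counted from 1.

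H3K9me2, the dimethylation of lysine 9 of histone H3, is written mainly by the methyltransferases G9a and GLP and covers broad, gene-poor or silent stretches of chromatin, many of them at the nuclear lamina. Acetylation of the same lysine, H3K9ac, marks active promoters and enhancers. A given lysine cannot carry both groups at once, and an active promoter often stands at the border of a silent domain. Nitric oxide can bind the iron of the Jumonji-type demethylases that remove H3K9me2.

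The files list called intervals, not reads, so the depth behind an interval is unknown. The H3K9me2 lists held 10590 to 14554 islands, and the domains took up 14 to 17.6% of the autosomal length that each list covered. Copy number was not measured and the input libraries were not analysed here, so more of the mark and more copies of the DNA cannot be told apart where domains are dense. The H3K9ac list of untreated replicate 1 stood apart, with 117307 autosomal peaks against 57935, 77566 and 67395 in untreated replicate 2 and treated replicates 1 and 2. Each H3K9ac result is therefore given per library.

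The domains were short for the name of domain, with a long tail. Their median length was 45.5 kb, with quartiles at 35 and 61.5 kb, and 266 of the 707 were under 40 kb. At 50 kb or more there were 285 and at 100 kb or more 58. Together they covered 39.7 Mb, or 1.38% of the 2879 Mb over which autosomal intervals were called. They made up 12.8% of the autosomal common segments in number and 47.4% in length, and the 4797 shorter autosomal segments had a median of 7.5 kb. Segments lay on both sides of the 30 kb limit in similar numbers. There were 26 segments of exactly 30000 bp, such as chromosome 5 at 5739501 to 5769500, and 21 segments of 29500 bp just below, such as chromosome 1 at 170748501 to 170778000.

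Chromosome 6 held 251 domains, 35.5% of all, and 18.5 of the 39.7 Mb. All 10 of the longest domains lay on it, and so did 47 of the 58 of at least 100 kb. Domains took 10.8% of the called span of chromosome 6. The next highest shares were 5.00% on chromosome 11, 3.95% on chromosome 20 and 2.79% on chromosome 8. On chromosome 6 the domains ran from 6102501 to 77332000 and none lay beyond. Chromosome 11 followed with 139 domains, then chromosomes 8 and 5 with 83 and 82, and these 4 chromosomes held 78.5% of the total. A further 49, 46, 24 and 14 lay on chromosomes 20, 7, 18 and 14. Chromosomes 21, 1, 15, 4 and 19 held 6, 5, 4, 2 and 2. The other 9 autosomes, chromosomes 2, 3, 9, 10, 12, 13, 16, 17 and 22, held none.

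How a chromosome's common H3K9me2 was packaged also differed. On chromosome 6, 83.5% of the common bases lay in large domains, so little of it was in small pieces. On chromosome 5 there were far more common segments, 1295 against 495, yet 21.7% of their bases were in large domains, and the median domain was 36.3 kb against 55.5 kb. Chromosome 3 had 350 common segments and no large domain. Chromosome X, outside the rule, had 1 common segment of 13.5 kb.

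**Figure D1:**
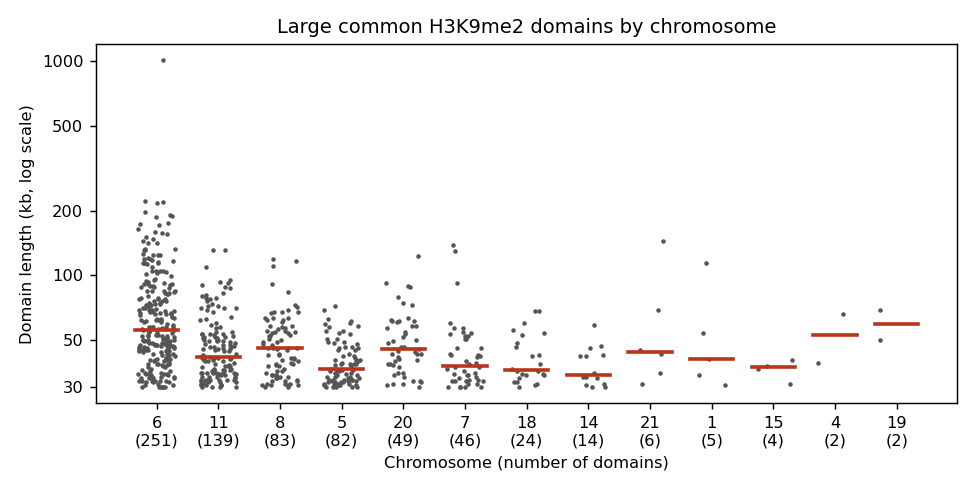
Length of every domain (points, kb, log scale) by chromosome, ordered by the number of domains, with the median as a red bar. Chromosome 6 has the most domains, the highest median among the chromosomes with at least 5 domains (55.5 kb) and the single domain of 1009.5 kb.

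A single domain stood far above the rest in length. It covered 1009.5 kb of chromosome 6 at 39523501 to 40533000, and the next in length was 223.0 kb. The islands that held it were 1410.5 kb in untreated replicate 1, 1422.5 kb in untreated replicate 2, 1009.5 kb in treated replicate 1 and 1239.5 kb in treated replicate 2. Treated replicate 1 thus set both of its ends. On its left edge the other 3 libraries reached 16.5 to 18.0 kb farther, and on its right edge up to 395 kb. Its islands ranked at the 91.8th percentile of authors' scores in untreated replicate 1, at the 99.97th in treated replicate 1 and at the 99.96th in treated replicate 2, but at the 39.0th in untreated replicate 2. The domain next to it at 40556001 to 40745000, 189.0 kb long, was held by the same island in 3 libraries and cut off by a break in treated replicate 1.

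The other 8 of the 10 longest were 173.5 to 223.0 kb long. They lay on chromosome 6 at 49968001 to 50191000, 51311501 to 51531500, 57205501 to 57423500, 70793501 to 70990000, 24089501 to 24281500, 29269001 to 29456500, 23486001 to 23661000 and 22182001 to 22355500. Each of these 8 was held by islands at or above the 98.7th percentile of score in each library. Away from chromosome 6 the longest were 144.0 kb on chromosome 21 at 11020501 to 11164500, 138.5 kb on chromosome 7 at 21844001 to 21982500 and 131.0 kb on chromosome 11 at 50522501 to 50653500. Chromosome 20 reached 122.5 kb at 52867501 to 52990000, chromosome 8 reached 119.0 kb at 108383501 to 108502500 and chromosome 1 reached 113.5 kb at 171075501 to 171189000. The longest on chromosomes 5, 18 and 14 were 71.5, 68.0 and 58.5 kb, at 15938501 to 16010000, 37974001 to 38042000 and 48036501 to 48095000.

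The islands that held the domains were mostly high in the authors' ranking. The median score percentile of the island holding a domain was 97.0 and 97.6 in the untreated and 96.9 and 96.9 in the treated libraries. For 335 domains, 47.4%, all 4 islands were among the highest 10% of their lists. At the other end, 37 to 55 domains per library were held by an island below the median score of its list, and for 1 domain this was so in all 4.

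Domains came in groups. Of 694 gaps between neighbours on a chromosome, 447 (64.4%) were at most 100 kb and 178 (25.6%) at most 10 kb. Joining neighbours at most 100 kb apart gave 260 groups. Of these, 131 were single domains and 129 held the other 576 domains (81.5%). Clustering was closest on chromosome 6, where the median gap was 21.0 kb and 79.6% of gaps were at most 100 kb. On chromosome 5 the median gap was 138.5 kb and 38.3% of gaps were that short.

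The 4 groups with most domains were all on chromosome 6. The group at 21962001 to 24357500 had 26 domains that filled 86.9% of its 2395.5 kb, and the group at 61880501 to 64035500 had 26 that filled 76.8% of 2155 kb. The group at 49598001 to 51955500 had 20 and was 83.3% filled. The group at 54308001 to 55491500 had 15 and was 72.8% filled. Next came 4 groups tied at 12 domains. Of these, 3 were on chromosome 6, at 68907501 to 70121500 (78.3% filled), 18589001 to 19605500 (88.1%) and 66349501 to 67291000 (62.6%), and 1 was on chromosome 20, at 50937501 to 51937000 (63.5%). Within the 4 groups with most domains and the longest of the tied ones, each library by itself covered 85.3 to 98.4% of the span. The first group was covered to 95.7 and 96.5% in the untreated and 94.2 and 95.3% in the treated libraries, in 18 to 22 islands per library. The share filled counts large domains alone, so shorter segments common to all 4 libraries are not in it.

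The gaps inside groups were largely H3K9me2 as well. Over the 12.6 Mb in the 447 gaps of at most 100 kb, all 4 libraries covered 45.0% of the bases, in segments too short for the limit. Exactly 3 libraries covered a further 31.5%, and 6.31% lay under no island in any library. Where exactly 3 covered, the missing library was treated replicate 1 for 36.2% of the bases, treated replicate 2 for 25%, untreated replicate 1 for 24.6% and untreated replicate 2 for 14.2%. No condition accounted for the breaks alone.

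Most edges were not held in place between libraries. At each of the 1414 edges, the end of the island that held the domain was taken in each library, and the spread was the distance from the nearest to the farthest of the 4 ends. The median spread was 42.0 kb, with quartiles at 14.5 and 89.0 kb and a maximum of 1050.5 kb. Each library was also left out in turn, with the domains drawn again from the other 3 libraries. The median was 31 and 32.5 kb without untreated replicates 1 and 2, and 26.75 and 29.25 kb without treated replicates 1 and 2. It was thus lower whichever library was left out, and the spread was then over 3 ends and not 4. With gaps of up to 5 kb bridged in all 4 libraries the median was 106.5 kb. All 4 ends fell on the same point of the 500 bp grid on which the islands lie at 50 edges (3.54%). They fell within 1 kb at 159 (11.2%) and within 5 kb at 244 (17.3%, 95% Wilson interval 15.4 to 19.3, which covers counting only). Edges of neighbouring domains can share an island and are not independent. The left and right edges had median spreads of 44.5 and 40.0 kb. At 24 domains both edges were within 5 kb.

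An edge was usually set by a single library. At 1107 edges (78.3%) exactly 1 library ended innermost, and it was treated replicate 1 at 373, treated replicate 2 at 269, untreated replicate 1 at 262 and untreated replicate 2 at 203. In the library that ended alone, the mark was most often called again close by. The median distance to its next island was 2.5 to 3 kb, and 62.4 to 68.4% of such breaks were at most 5 kb, where the smallest gap in any of the lists was 2 kb. Many edges of the common segments were therefore short interruptions in 1 library and not the far limit of the mark. The reach beyond the common segment had a median of 5.5 and 11 kb in untreated replicates 1 and 2 and of 2 and 5 kb in treated replicates 1 and 2. The library means were 32.4 kb ± 7.52 without and 25.7 kb ± 2.38 with DETA/NO (SD, n = 2).

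Pairs of libraries from the same condition did not have the closest edges. The ends of both untreated libraries lay farther out than both treated ends at 183 edges (12.9%), and the reverse held at 117 (8.27%). These shares were not computed for the edges of shorter common segments, so they are not read as a trait of the large domains. Among the 6 pairs of libraries, ends fell within 500 bp of each other most often for untreated replicate 2 with treated replicate 1, at 30.3% of edges, and for untreated replicate 1 with treated replicate 2, at 29.5%. Both are pairs across conditions. The untreated pair stood at 26.7% and the treated pair at 19.3%, the lowest of the 6.

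**Figure D2:**
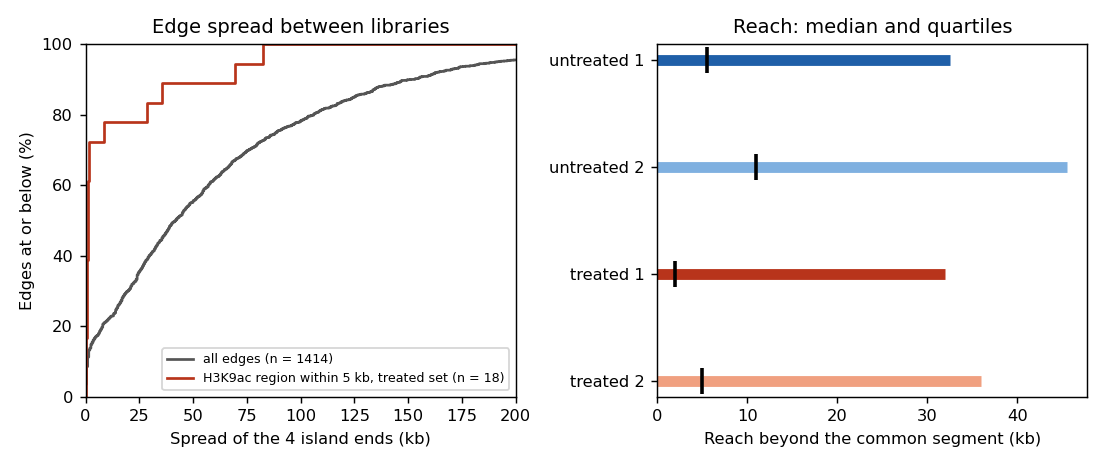
Left, cumulative share of edges (%) by the spread of the 4 island ends (kb, shown to 200 kb), for all 1414 edges and for the 18 edges with a treated reproducible H3K9ac region within 5 kb outside. Right, reach of each library beyond the common segment (kb), with the median as a black tick and the quartiles as the ends of the bar; the 18 edges rise to 72.2% within 5 kb, and the medians lie between 2 and 11 kb.

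The most stable domains included short and long ones. A 31.0 kb domain on chromosome 15 at 20847501 to 20878500 had the same start and end in all 4 libraries, the single domain of which this held. The next in stability had a spread of 0.5 kb at 1 or both edges. They were 59.5 kb on chromosome 7 at 61857501 to 61917000, 45.5 kb on chromosome 6 at 62384001 to 62429500, 36.0 kb on chromosome 11 at 100286001 to 100322000 and 114.5 kb on chromosome 6 at 6431001 to 6545500. The least stable, besides the neighbour of the 1009.5 kb domain, were 4 domains between 50229001 and 50777500 on chromosome 6. Untreated replicate 2 called that whole stretch as 1 island of 623.0 kb from 50194001 to 50817000, whereas treated replicate 1 had separate islands at 50229001 to 50591500, 50594001 to 50682000 and 50684501 to 50786500.

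H3K9ac peaks called in single libraries were found inside the domains in every library, but they were far from equal in number. Untreated replicates 1 and 2 had 1561 and 539 peaks inside the 39.7 Mb, and treated replicates 1 and 2 had 62 and 326. That is 39.4 and 13.6 peaks per Mb in untreated and 1.56 and 8.22 in treated cells, so the conditions did not overlap, while replicates of each were far apart. The means were 26.5 per Mb ± 18.2 and 4.89 ± 4.71 (SD, n = 2), a difference of -21.6 per Mb. The exact two-sided permutation p was 0.33, the smallest that 2 libraries against 2 allow. Without untreated replicate 1 the difference was -8.70 per Mb (exact permutation p = 0.67), without untreated replicate 2 it was -34.5, and with equal numbers of top-scoring peaks from each library it was -9.45. At equal numbers the untreated libraries had 11.2 and 13.6 peaks per Mb and the treated ones 0.731 and 5.12, so the wide gap between the untreated replicates was seen in the full lists and not at equal list length.

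Outside the domains the libraries were in another order. The rest of the autosomes had 40.8 and 20.2 peaks per Mb in untreated and 27.3 and 23.6 in treated cells, a difference of -5.03 per Mb between conditions (exact permutation p = 1). The density inside was thus 0.965 and 0.672 times that outside in the untreated libraries, and 0.0573 and 0.348 times in the treated ones. The ratio was below 1 in 4 of 4 libraries, with a mean log2 ratio of -1.57 ± 1.81 (SD, n = 4; exact two-sided sign-flip permutation p = 0.13, the smallest that 4 libraries allow). Without treated replicate 1 the mean log2 ratio was -0.72. It was -2.84 by the share of bases under peaks, -4.68 with the 20000 highest-scoring peaks of each library and -5.39 with the reproducible sets. With chromosome 6 left out the ratio was below 1 in 3 of 4 libraries, and in untreated replicate 1 it was 1.05. The sequence outside includes unsequenced gaps, which lower its density, so a ratio this near 1 is not read as an excess inside. In the full list of untreated replicate 1 the density inside was close to that outside, but its ratio was 0.553 at equal numbers of top peaks, 0.699 by the share of bases and 0.129 among its 20000 highest-scoring peaks. By condition the log2 ratio was -0.31 ± 0.37 without and -2.82 ± 1.84 with DETA/NO (SD, n = 2; exact permutation p = 0.33).

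**Figure D3:**
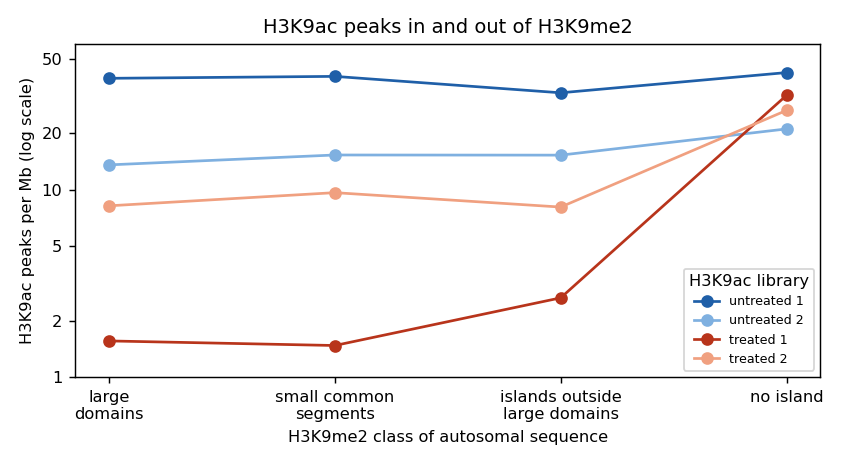
H3K9ac peaks per Mb (log scale) in each H3K9ac library (lines), for large common H3K9me2 domains, small common segments, all island sequence outside the large domains, and autosomal sequence under no island in any library. Inside the large domains the order runs from 39.4 to 1.56 per Mb, whereas under no island the 4 libraries lie between 21.1 and 42.2.

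The same order was seen on most chromosomes. Among the 10 chromosomes with at least 5 domains, both untreated libraries had more peaks per Mb of domain than both treated ones on 9, the exception being chromosome 20. On chromosome 6 the values were 34.9 and 13.9 per Mb in untreated and 1.90 and 6.07 in treated cells, and on chromosome 11 they were 47.0 and 13.6 against 1.33 and 11.1. On chromosome 20 they were 48.7 and 9.26 against 0.805 and 11.3. Set against the rest of the same chromosome, the domains had a higher density on 5 of the 10 chromosomes in untreated replicate 1 and on 3 in untreated replicate 2, and on 0 in either treated library. The rest includes unsequenced gaps, which lower its density. The untreated counts of 5 and 3 were not worked out on sequenced bases alone and may be too high. The chromosomes repeat the same 4 libraries and are not separate evidence.

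Peaks inside the domains were weak. Their median rank in the authors' score was at the 37.1st and 31.1st percentile of the untreated lists and at the 23.1st and 23.4th of the treated lists. The highest-ranked peak inside stood at the 91.2nd, 79.5th, 80.9th and 76.7th percentile, so a single peak, in untreated replicate 1, was among the highest 10% of its list. Of the 20000 highest-scoring peaks of each library, 35 and 60 lay inside in untreated and 3 and 2 in treated cells. The median width inside was 239 and 188 bp in the untreated and 133 and 121 bp in the treated libraries, against 240 and 235 bp and 241 and 196 bp outside. The narrowest peak inside was 238 and 175 bp in the untreated and 99 and 114 bp in the treated libraries, so the lists also differ in how narrow a peak they admit. The part that calling had in the difference between conditions was not tested.

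They also seldom lay in the same place. Of the 1561 peaks inside in untreated replicate 1, 20 (1.28%) met a peak of untreated replicate 2, whereas 17.0% of its peaks outside did. For untreated replicate 2 the same 20 were 3.71% of its 539, against 41.7% outside. In treated replicate 1, 7 of 62 peaks inside (11.3%) met a peak of treated replicate 2, against 41.4% outside. In treated replicate 2, 6 of 326 peaks inside (1.84%) met a peak of treated replicate 1, against 60.1% outside. Peak width and score, which differed between inside and outside, were not adjusted for.

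Counted over domains, 591 of 707 held at least 1 peak in untreated replicate 1, 342 in untreated replicate 2, 49 in treated replicate 1 and 247 in treated replicate 2. In 179 domains (25.3%) there was a peak in both untreated and in neither treated library, and in 0 the reverse. No library had a peak in 57 domains and all 4 had one in 12. These counts are over whole domains of unequal length. How often other sequence shows the same patterns was not computed, so they are not read as a trait of the domains. To compare sequence of equal length, the central 30 kb of each domain was set beside all 95962 autosomal windows of 30 kb. In untreated replicate 1 a peak was more frequent in domain centres, at 69.0% against 58.5% of all windows. In untreated replicate 2 the shares were 33.5 and 35.3%, in treated replicate 1 they were 4.24 and 28.6%, and in treated replicate 2 they were 21.9 and 32.4%. The treated libraries had the larger shortfalls. Both untreated libraries had more peaks than both treated ones in 142 of 707 domain centres (20.1%), where 10.3% of all windows did. The reverse held in 1 domain centre (0.141%), where 5.32% of all windows did. The windows share the same 4 libraries, and no test was made of these shares. Windows in unsequenced gaps, where no peak can be called, are among all windows and lower the shares given for them.

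The longest domain carried the most peaks when the 4 libraries were summed, but not per Mb. Its 1009.5 kb held 57 and 22 H3K9ac peaks without DETA/NO and 3 and 11 with it, or 56.5, 21.8, 2.97 and 10.9 per Mb. Its 189.0 kb neighbour at 40556001 to 40745000 held 16 and 4 against 0 and 3, or 84.7 per Mb in untreated replicate 1. At 51311501 to 51531500 there were 15 and 5 against 0 and 1, or 68.2 per Mb in that library. At 49968001 to 50191000 there were 5 and 5 against 0 and 1. At 57205501 to 57423500 there were 5 and 1 against 0 and 0. In treated replicate 1 the highest count in any domain was 5, in another domain than the longest.

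Few of the authors' reproducible H3K9ac regions, 1 set per condition, lay in the domains. In the set from untreated cells 16 of 14043 autosomal regions (0.114%, 95% Wilson interval 0.0701 to 0.185) met a domain, and in the set from treated cells 2 of 20509 (0.00975%, 0.00267 to 0.0356). Per Mb this was 0.403 inside against 4.94 outside without, and 0.0504 against 7.22 with nitric oxide. With a single set for each condition no test was made. Both intervals cover counting only and not the variation between libraries, so they do not compare the conditions. The 16 untreated regions lay in 16 domains, were 241 to 601 bp wide and ranked at or below the 29.9th percentile of score. The widest was on chromosome 1 at 170312695 to 170313295, 12.7 kb inside a domain of 40.5 kb. The deepest lay 90.1 kb from the nearest edge, on chromosome 6 at 24179600 to 24179967. A single region crossed an edge, on chromosome 8 at 132576799 to 132577352. The regions on chromosomes 1 and 8 were picked after their values were seen.

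By the rule for naming, which takes the 10 longest domains that met a reproducible region, 5 untreated regions lay in domains of over 100 kb on chromosomes 6 and 11 beside the one at 24179600. They were at 51463472 to 51463882, 61951270 to 61951528, 62256726 to 62257002 and 63664139 to 63664705 on chromosome 6 and at 50651458 to 50651698 on chromosome 11. The remaining named ones were at 50633010 to 50633322 on chromosome 6 and at 103542298 to 103542570 and 112977221 to 112977653 on chromosome 11. Both treated regions lay in the 1009.5 kb domain, at 39759834 to 39760658 and 39901672 to 39902545, and were 825 and 874 bp wide. They stood 236 and 378 kb from its nearer edge. Their score percentiles were 34.1 and 13.7, and no untreated reproducible region lay in that domain.

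Across the edges H3K9ac dropped within a single step of 5 kb in the treated libraries. In treated replicate 1 the share of bases under peaks was 0.595% in the 5 kb just outside and 0.0154% in the 5 kb just inside. In treated replicate 2 it was 0.511 and 0.138%, in untreated replicate 2 it was 0.514 and 0.295%, and in untreated replicate 1 it was 1.56 and 1.12%. The step just outside was higher than the next one out. At 5 to 10 kb outside the shares were 0.209 and 0.239% in treated replicates 1 and 2. They were 1.33 and 0.459% in untreated replicates 1 and 2. At 30 to 35 kb outside they were 0.548 and 0.558% in treated and 1.53 and 0.571% in untreated replicates 1 and 2. A share near that of the step just outside was therefore not particular to the edge. Over all sequence outside the domains, treated replicates 1 and 2 had 1.79 and 1.30%. Farther in, the share was flat, so the peaks of untreated replicate 1 were spread through the domains and not gathered at their rims. Its values ran from 0.797 to 1.25% over the 50 kb inside. In the treated reproducible set 0.420% of bases just outside and 0% at every step up to 50 kb inside lay under a region, and in the untreated set it was 0.209 and 0.0200% on either side of the edge. Sequence outside excluded other domains but was itself 60.4 to 68.6% under H3K9me2 islands in the nearest 5 kb.

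**Figure D4:**
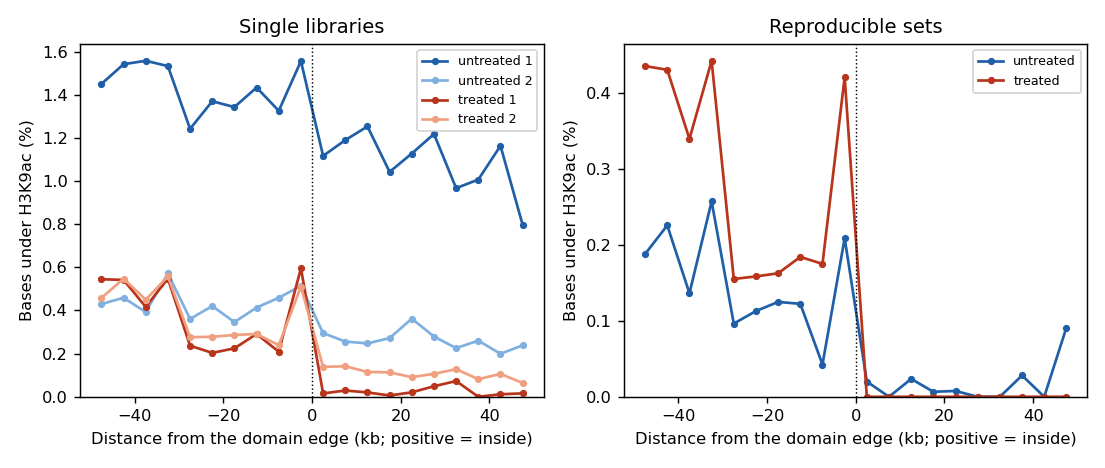
Share of bases under H3K9ac (%) by distance from the domain edge (kb in steps of 5 kb, positive inside), for the 4 libraries on the left and the 2 reproducible sets on the right, with a dotted line at the edge. Treated replicate 1 goes from 0.595 to 0.0154% across the line, and the treated reproducible set from 0.420 to 0%. At 5 to 10 kb outside they stand lower, at 0.209 and 0.175%. At 30 to 35 kb outside they are again near their level just outside the edge, at 0.548 and 0.442%.

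A few edges had an acetylated region right beside them, and at these the libraries ended close together. A treated reproducible H3K9ac region lay within 5 kb outside 18 of the 1414 edges (1.27%), 14 of them on chromosome 6, at 0.202 to 2.65 kb from the edge. At 13 of the 18 (72.2%) the 4 H3K9me2 ends were within 5 kb of each other, and all 13 were in fact within 1.5 kb. Among the other 1396 edges, 231 (16.5%) were within 5 kb. The median spread was 1.00 kb beside a region and 42.5 kb elsewhere. With the untreated set there were 14 such edges, 11 of them the same, with 8 within 5 kb (57.1% against 16.9%) and a median spread of 1.5 against 42.0 kb. Edges were chosen by the H3K9me2 islands and regions by H3K9ac, but the spread and the presence of a region are not independent. Where the spread is wide, sequence just outside the edge lies under islands of other libraries, and few reproducible regions lay inside the domains. The comparison cannot separate this from a link between regions and stable edges. The treated region at 46458754 to 46459715 was counted at both of the edges it lay between. The comparison was made after the profile at the edges had been seen, and neighbouring edges are not independent, so it is a description.

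Examples, picked after their values were seen, show both sides of such borders. On chromosome 6 a treated H3K9ac region of 962 bp at 46458754 to 46459715 stood in the gap between a domain at 46356001 to 46457500 and another at 46460501 to 46500500. It lay 1.25 kb from the first and 0.785 kb from the second, and the 4 libraries ended within 0.5 kb of each other at both of these edges. The domain on chromosome 7 at 21844001 to 21982500 ended within 1.00 kb in the 4 libraries, 0.795 kb before a treated region of 2920 bp at 21983296 to 21986215. In untreated cells that region was 1920 bp, at 21984190 to 21986109, and 1.69 kb away. The domain on chromosome 11 at 123615001 to 123691000 started within 1.00 kb in all libraries, next to a treated region at 123610969 to 123613146 that ranked at the 94.2nd percentile of score. An exception stood on chromosome 6 at 46571001 to 46619000, where a treated region began 0.202 kb beyond the right edge. There the island of untreated replicate 1 ran on for 82.5 kb, and those of the other 3 libraries ended within 0.5 kb.

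The gaps between domains of a group had the same order of libraries as the domains. The 447 gaps of at most 100 kb held 48.8 and 16.4 peaks per Mb in untreated and 5.06 and 10.9 in treated cells. They met 12 untreated and 15 treated reproducible regions. The treated set thus had 1.19 regions per Mb in the gaps, against 0.0504 inside the domains and 7.22 in the rest of the autosomes. Its value inside rests on 2 regions, both in the 1009.5 kb domain. The untreated set had 0.949 per Mb in the gaps, against 0.403 inside and 4.94 in the rest.

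A difference in H3K9ac between large domains and small common segments was not detected. The 4797 autosomal segments under 30 kb held 40.3 and 15.3 peaks per Mb in untreated and 1.48 and 9.66 in treated cells. The mean log2 ratio of large over small was -0.09 ± 0.14 (SD, n = 4; lower in 3 of 4 libraries; exact two-sided sign-flip permutation p = 0.375). Sequence under no island in any library had 42.2 and 21.1 peaks per Mb in untreated and 31.9 and 26.5 in treated cells.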

How the data were processed

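H3K9me2 and H3K9ac were mapped by ChIP-seq. Build hg19 and the tools SICER, MACS2, Picard, BWA 0.7.5 and Trimmomatic 0.32 come from the submitters' processing notes. Their roles and settings were not given in the sources used. Each interval has a score that the authors deposited, used only to rank or filter within a list. H3K9me2 lists, whose rows are named as SICER peaks, give each library's islands, on a 500 bp grid, with scores of at least 5. Positions are the deposited starts and ends, with 1 bp added to H3K9me2 ends. The 2 reproducible H3K9ac sets are the authors' own, 1 per condition.

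Islands were intersected with numpy 2.4.6, pandas 2.3.3 and SciPy 1.17.1 under Python 3.11.15. A peak was inside when it shared at least 1 bp with a domain. The rest of the autosomes ran to the last called base of each chromosome, unsequenced gaps included. Library values were compared by exact permutation. The interval code was tested on simulated data, recovering 200 of 200 segments. The domains and rules were chosen with earlier results of these data known. Domains named are the 10 longest, those next to the limit, the longest of each chromosome with at least 5, the 5 groups with most domains (with ties), the 5 with the smallest and largest edge spread, and the 10 longest that met a reproducible region. Genes and sequences are not given because no annotation or genome of hg19 was used here. Alternatives are in the closing section.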

Additional observations from a re-analysis of the deposited data

How the results depend on the processing

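The number of domains moved with the length limit, to 1229, 285 and 58 at 20, 50 and 100 kb, with 52.3, 23.7 and 8.82 Mb. Bridging gaps of up to 1 kb could change nothing, because the smallest gap in any of the lists was 2 kb. Bridging up to 5 kb gave 734 domains and 68.1 Mb. Islands at or above the median score gave 577 domains and 32.5 Mb, and ends as deposited 681 and 38.9 Mb. Leaving out each H3K9me2 library in turn gave 799 to 889 domains and 45.6 to 52.4 Mb. The share of edges within 5 kb, 17.3%, became 11.2 and 21.7% at tolerances of 1 and 10 kb, 10.7% with gaps of up to 5 kb bridged and 20.9 to 23.5% with each library left out. The 260 groups became 362, 162 and 81 with gaps of up to 50 kb, 250 kb and 1 Mb, and 151 with domains of at least 50 kb.

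The difference between conditions and the mean inside over outside ratio kept their sign under every alternative run, but the ratio of untreated replicate 1 did not. Treated minus untreated density ranged from -34.5 to -8.70 peaks per Mb with each H3K9ac library left out, and was -1.13 with the 20000 top peaks of each library. The inside over outside log2 ratio ranged from -2.07 to -0.72 with each library left out. Leaving out chromosome 6 or the longest domain, both added after seeing the data, gave differences of -22.6 and -21.3 per Mb. Without chromosome 6 the density inside in untreated replicate 1 was 1.05 times that outside, and the mean log2 ratio was -1.55, lower in 3 of 4 libraries (exact sign-flip permutation p = 0.25). Unsequenced gaps are counted in the sequence outside and lower its density. With the replicate number as a block the difference was -21.6 per Mb (exact sign-flip permutation p = 0.5, the smallest for 2 pairs). The labels do not say that equal numbers share a batch, and the replicate differences of the 2 conditions correlated at 0.031 over 95962 windows. Depth is unknown, so counts of weak peaks cannot be adjusted for it.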
